A study of Homo sapiens with 6 samples.

Results

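Of the 13 genes that make up a short list of transcripts linked to the coactivator YAP, 7 were in the deposited table: ANKRD1, CCDC80, CCN1, CCN2, LATS2, PTPN14 and NT5E. They were found by gene name among 4439 genes, CCN1 and CCN2 under their present symbols. The other members, AMOTL2, CRIM1, FJX1, AJUBA, MYOF and NUAK2, were not analysed here. RNA was sequenced from 3 libraries of HCC827, a human lung adenocarcinoma cell line with an activating EGFR deletion that is sensitive to osimertinib, an inhibitor of mutant EGFR. A further 3 libraries came from HCC827OR, a derivative of HCC827 obtained by exposure to 10, 50, 100 and 500 nM and then 1 and 5 µM osimertinib, with 1 month at each step. The sources used here do not say whether HCC827OR was a clone or a pool, or whether drug was present at harvest. Every gene in the table had already been called different between these lines by the authors, so the tests below are not independent evidence that a member differed.

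YAP and its relative TAZ, encoded by YAP1 and WWTR1, are transcriptional coactivators without a DNA-binding domain of their own. They act mainly through the TEAD factors, which bind a GGAATG core. The Hippo kinases MST1 and MST2 activate LATS1 and LATS2, which phosphorylate YAP and TAZ and keep them out of the nucleus, and cell shape, contact and actin tension feed into this cascade. CCN1, CCN2 and ANKRD1 are widely used reporters of YAP activity, and LATS2 and PTPN14 are targets that restrain YAP in turn.

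Values are the authors' normalized expression values, whose unit is not named. Levels of members were therefore not compared with each other, sums over genes only describe, and depth is unknown. Over the table's genes they summed to between 115790 and 145175 in HCC827 libraries and to between 149956 and 152065 in HCC827OR libraries. HCC827 replicate 3 stood apart in several genes below, CCN2 most of all among the members, and results that rest on it are given with and without it. The labels do not state whether replicates were separate cultures, and p-values therefore cover only the spread among these 6 libraries, which may be technical. In bulk RNA, fewer cells expressing a transcript and less of it per cell cannot be told apart.

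In HCC827OR 6 of the 7 members were higher and NT5E was lower. ANKRD1 and CCDC80 changed most, 17.7-fold and 28.2-fold by the ratio of means, while CCN1, CCN2, LATS2 and PTPN14 rose between 2.69-fold and 3.77-fold. All 7 passed the limma test at an adjusted p below 0.05, as did 97.5% of the 3332 genes tested, so that count says little about the members. By direction 52.5% of tested genes were called higher and 45.0% lower. The 7 changes also exceeded 1 on the log2 scale of value + 1, which 43.0% of tested genes did upward and 33.3% downward. The resistant values of all 6 risers lay above every parental value and those of NT5E below, a separation seen upward in 52.1% and downward in 44.8% of tested genes. The authors' own calls in their deposited table were higher for 53.9% of genes and lower for 46.1%. The median log2 fold change was 1.53 over the 7 members and 0.74 over all tested genes, a value that mixes risers and fallers. Among the 1774 tested genes with a positive change, CCDC80 exceeded 98.4% and ANKRD1 97.7%. CCN1 exceeded 75.4% of these, PTPN14 59.4%, CCN2 58.5% and LATS2 45.0%.

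**Figure D1:**
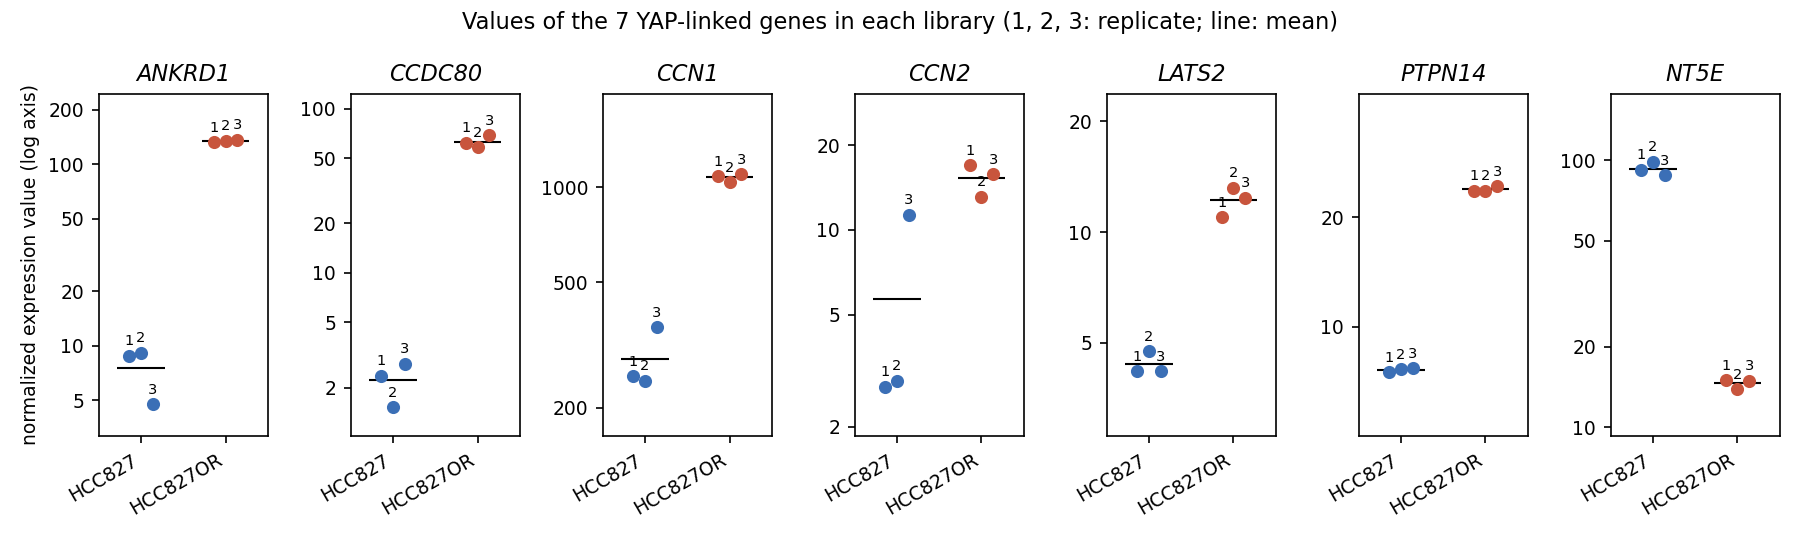
Normalized expression value (log axis, scaled separately for each gene) of the 7 members in the 3 HCC827 and 3 HCC827OR libraries, each point a library with its replicate number and the line the mean. The groups do not overlap for any member, and HCC827 replicate 3 lies apart from the other parental libraries in CCN2, at 11.31, and in ANKRD1, at 4.77.

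ANKRD1 encodes a nuclear and sarcomeric ankyrin repeat protein induced by stretch in heart muscle, and the gene (ENSG00000148677) lies on chromosome 10, 90912096 to 90921276 in GRCh38. Its values were 8.83, 9.17 and 4.77 in HCC827 and 132.61, 135.06 and 136.41 in HCC827OR. The resistant libraries were close together, whereas HCC827 replicate 3 was well below the other parental libraries, and the lines did not overlap. The means were 7.59 ± 2.45 and 135 ± 1.93 (SD, n = 3 each), with a limma adjusted p of 5.22e-06 for the log2 fold change of 4.03 (SE 0.223). Without HCC827 replicate 3 the ratio of means was 15.0 in place of 17.7. Among the 1774 tested genes with a positive change, ANKRD1 ranked 41.

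CCN1 and CCN2, once called CYR61 and CTGF, encode secreted matricellular proteins that bind integrins. CCN1 (ENSG00000142871; chromosome 1, 85580761 to 85583962) had values of 252.37, 243.9 and 360.9 in HCC827 and 1083.8, 1039.97 and 1103.39 in HCC827OR. Every resistant value was far above the highest parental value, that of replicate 3. CCN1 rose 3.77-fold, from 286 ± 65.2 to 1076 ± 32.5, with an SE of 0.176 on its log2 fold change of 1.93 (limma adjusted p = 4.61e-05). CCN2 (ENSG00000118523; chromosome 6, 131948176 to 131951373) had 2.78, 2.92 and 11.31 in HCC827 and 16.93, 13.13 and 15.74 in HCC827OR. HCC827 replicate 3 was therefore nearer to the resistant libraries than to the other parental libraries. The CCN2 change was 2.69-fold, from 5.67 ± 4.89 to 15.3 ± 1.94, with an SE of 0.446 on its log2 fold change of 1.51 (limma adjusted p = 0.0127). Without HCC827 replicate 3 it was 5.36-fold, with a log2 fold change of 2.07 (limma adjusted p = 4.42e-06). CCN2 shares exon bases with the antisense gene AL133346.1, and no source used here says whether counting used strand, so the pair cannot be told apart.

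The promoters of CCN2 and ANKRD1 are shown because they hold the TEAD core more than once, and those of CCDC80 and NT5E because these members changed most and in the opposite direction to the rest, respectively. The sequences are the 250 bases before the start site in RefSeq on GRCh38.p14, in the direction of transcription, with GGAATG on either strand in capitals.
ANKRD1 (chr10:90921088-90921337, minus strand): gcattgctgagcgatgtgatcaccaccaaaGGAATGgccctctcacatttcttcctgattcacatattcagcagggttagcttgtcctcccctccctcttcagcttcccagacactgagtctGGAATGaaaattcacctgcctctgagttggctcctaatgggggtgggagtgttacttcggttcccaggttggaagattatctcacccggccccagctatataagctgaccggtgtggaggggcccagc
CCN2 (chr6:131951373-131951622, minus strand): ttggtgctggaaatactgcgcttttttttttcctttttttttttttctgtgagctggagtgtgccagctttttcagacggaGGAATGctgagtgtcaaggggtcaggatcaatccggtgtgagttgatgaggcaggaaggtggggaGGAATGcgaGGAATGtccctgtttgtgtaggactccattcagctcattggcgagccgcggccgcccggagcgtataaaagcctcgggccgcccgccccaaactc
CCDC80 (chr3:112641144-112641393, minus strand): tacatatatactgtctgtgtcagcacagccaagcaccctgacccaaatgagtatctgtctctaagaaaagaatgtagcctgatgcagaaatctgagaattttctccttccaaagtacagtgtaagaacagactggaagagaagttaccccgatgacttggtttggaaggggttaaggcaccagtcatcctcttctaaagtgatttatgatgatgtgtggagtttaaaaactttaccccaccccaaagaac
NT5E (chr6:85449833-85450082, plus strand): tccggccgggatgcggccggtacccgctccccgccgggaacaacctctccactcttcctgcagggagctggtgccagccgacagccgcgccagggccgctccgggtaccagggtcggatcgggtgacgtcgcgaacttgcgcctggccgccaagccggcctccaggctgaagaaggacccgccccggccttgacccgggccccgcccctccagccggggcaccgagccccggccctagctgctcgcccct

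RefSeq windows from 250 bases before to 50 bases after the start were found for 6 of the 7 members. GGAATG was searched on both strands, and no matches overlapped in these windows. CCN2 had 3 matches, with first bases at -169, -104 and -95 from the start site, and ANKRD1 had 2, at -220 and -128. Of all 35116 such windows 14% held at least 1 match, 1.37% at least 2 and 0.128% at least 3. PTPN14 had 1 match on the other strand, with first base at -200, and LATS2 had 1 just after its start, with first base at 10. These matches are shown with 12 flanking bases on each side.
PTPN14 (chr1:214551785-214551814, minus strand): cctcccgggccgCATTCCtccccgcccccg
LATS2 (chr13:21061560-21061589, minus strand): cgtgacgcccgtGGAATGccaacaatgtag
The windows of CCDC80 and NT5E held no match, which says only that these letters are not in these windows. Both windows lie within the gene bounds that GENCODE gives, as does that of PTPN14, so the RefSeq start used is not the outermost start. Other start sites of these genes were not searched. Neither the core of the AP-1 site, TGACTCA on either strand, nor the CArG box of the factor SRF matched in any of the 6 windows. All windows held them in 4.95% and 1.29%. A looser form of the AP-1 site, TGANTCA, was searched first and matched once, in ANKRD1 with first base at -195, and in 7.71% of all windows. It includes every TGACTCA match, and the stricter form was chosen after that match was seen. Among the table's genes GGAATG was in 13.6% of 1618 windows of genes the authors called higher and in 11.9% of 1241 windows of those called lower. No binding or chromatin was measured, so a match describes the letters only.

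**Figure D2:**
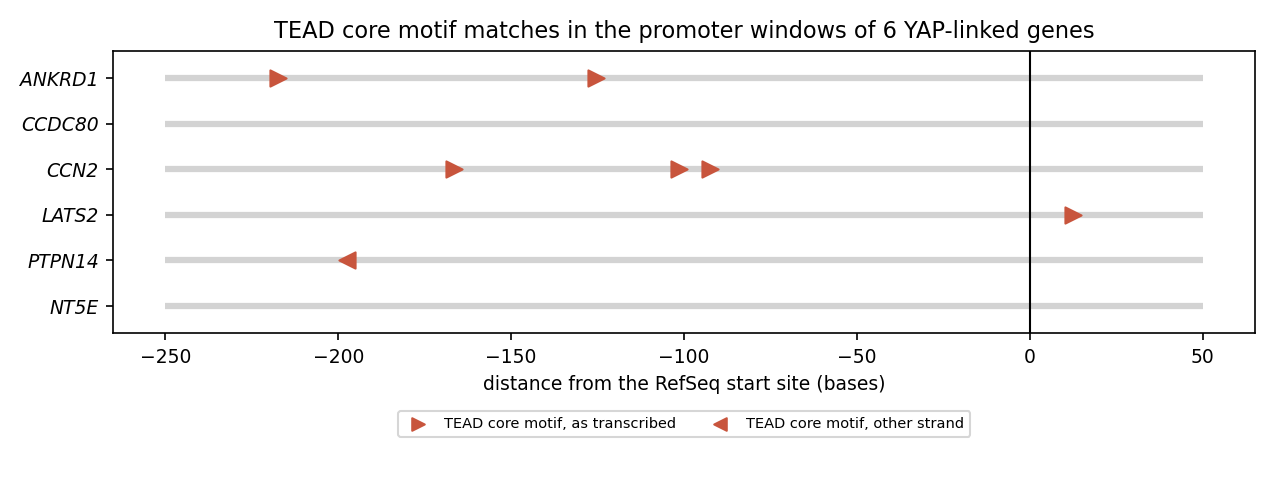
Positions of the TEAD core motif (x axis, bases from the RefSeq start site) in the windows of 6 members, with arrowheads giving the strand. CCN2 has 3 matches and ANKRD1 2 before the start, PTPN14 and LATS2 have 1 each, and CCDC80 and NT5E have none.

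LATS2 and PTPN14 act against YAP. LATS2, the kinase that phosphorylates YAP and TAZ (ENSG00000150457; chromosome 13, 20973032 to 21061547), had values of 4.19, 4.75 and 4.19 in HCC827 and 10.96, 13.2 and 12.39 in HCC827OR. All resistant values lay above all parental values, and LATS2 rose 2.78-fold, from 4.38 ± 0.323 to 12.2 ± 1.13 (log2 fold change 1.29, SE 0.136, limma adjusted p = 8.86e-05). PTPN14, a tyrosine phosphatase that holds YAP in the cytoplasm (ENSG00000152104; chromosome 1, 214348696 to 214552449), had 7.51, 7.66 and 7.71 against 23.7, 23.73 and 24.37. Its values were close together within both lines and did not overlap between them, and it rose 3.14-fold, from 7.63 ± 0.104 to 23.9 ± 0.379 (log2 fold change 1.53, SE 0.108, limma adjusted p = 1.35e-05). The PTPN14 gene shares exon bases with KRT18P12, a pseudogene of the keratin gene KRT18, and with AL929236.1, so part of its reads could not be assigned with certainty. Both these restraints on YAP and the reporters ANKRD1, CCN1 and CCN2 were thus higher in the same line.

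CCDC80 encodes a secreted protein of the extracellular matrix, and the gene (ENSG00000091986) lies on chromosome 3, 112596794 to 112649530. Its values were 2.36, 1.52 and 2.8 in HCC827 and 61.91, 58.07 and 68.66 in HCC827OR. The parental libraries were all low and the resistant ones all high, with no overlap. The means were 2.23 ± 0.650 and 62.9 ± 5.36, and the log2 fold change of 4.32 had an SE of 0.179 (limma adjusted p = 1.76e-06), which ranked 29 of the 1774 positive changes. The authors' deposited table gives a smaller fold of 18.3 for CCDC80, where the ratio of the deposited means is 28.2. For the other 6 members the authors' fold was between 0.939 and 0.984 of that ratio. By the ratio of means, leaving out a single library gave between 24.4-fold and 32.4-fold for CCDC80.

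NT5E encodes CD73, the cell surface enzyme that converts AMP to adenosine, and the gene (ENSG00000135318) lies on chromosome 6, 85449584 to 85495791. Its values were 92.4, 98.98 and 87.99 in HCC827 and 14.98, 13.87 and 14.95 in HCC827OR. Both lines were tight and far apart, and NT5E fell 6.38-fold, from 93.1 ± 5.53 to 14.6 ± 0.632. On the log2 scale the change was -2.59 with an SE of 0.107 (limma adjusted p = 1.72e-06), which ranked 211 of the 1558 negative changes. Leaving out a single library gave falls between 6.18-fold and 6.55-fold. Of the 4 other protein-coding genes within 1 Mb of NT5E in GENCODE release 29, none was in the table. Within the same distance of ANKRD1 1 of 7 was in the table and higher, and of CCN2 3 of 21, all higher. Around CCDC80 there were 5 of 23, 2 higher and 3 lower, and around LATS2 4 of 15, 1 higher and 3 lower. Around PTPN14 1 of 4 and around CCN1 1 of 15 was in the table, both lower. Of all genes in the table the authors called 53.9% higher and 46.1% lower. The share of all protein-coding genes that are in the table was not computed, so these counts only describe.

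**Figure D3:**
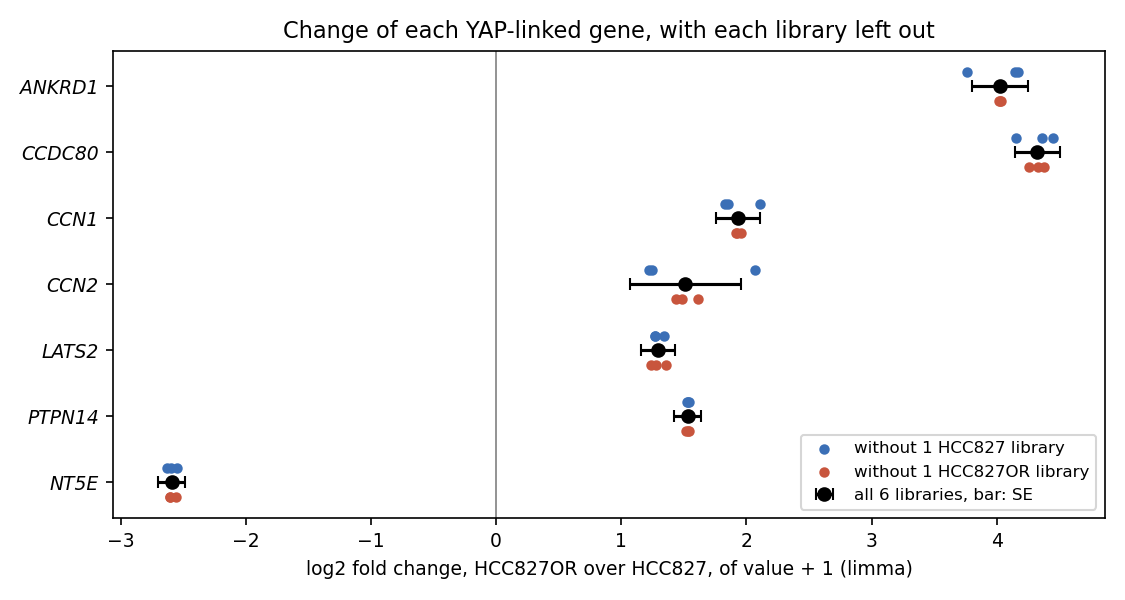
Log2 fold change of value + 1 in HCC827OR over HCC827 for the 7 members, with all libraries (black, bar SE) and with each HCC827 (blue) or HCC827OR (red) library left out. NT5E lies at -2.59 and the others at 1.29 or above, and the widest spread is that of CCN2, from 1.22 to 2.07.

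In size of change on the log2 scale CCDC80 at 4.32 and ANKRD1 at 4.03 had overlapping SE intervals, as had PTPN14, CCN2 and LATS2 at 1.53, 1.51 and 1.29. The wide interval of CCN2 also overlapped that of CCN1 at 1.93. Differences between members were not tested. The 3 genes most like ANKRD1, by Euclidean distance over the 6 libraries of log2(value + 1) centred on each gene's mean and among 3331 genes, were HEG1, which encodes a membrane protein of heart and vessel development, the receptor gene AXL and the secretogranin gene SCG5, with distances of 0.35, 0.45 and 0.48. For CCDC80 they were the myosin light chain gene MYL9, GLIPR1 and the growth factor gene IGF2, with distances of 0.29, 0.34 and 0.36, and the reads of IGF2 overlap the INS-IGF2 locus and are uncertain. For NT5E they were the sterol oxidase gene MSMO1, the chaperonin subunit gene CCT6A and the mitochondrial ribosomal gene MRPS17, with distances of 0.14, 0.17 and 0.17. CCT6A and MRPS17 are both on chromosome 7, as is EGFR. All genes compared were picked for differing between the same libraries, so a difference between the lines is shared by construction.

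Other genes listed as targets of YAP and TEAD were higher in HCC827OR where they were tested. Of 24 such genes 14 were in the table and 13 were tested. Of those, ANKRD2, FGF1, GLI2 and RBMS3 were below 1 in every HCC827 library, so they passed the filter on low values through the resistant line alone and could only be higher. The other 9 were all called higher, with a median log2 fold change of 2.71. Over the 2388 tested genes that reached 1 in at least 1 library of each line, 49.9% were called higher and 46.6% lower, with a median of 0.57. All genes in the table had been selected for a change, so this median lies between risers and fallers. It is therefore no reference for the size of a rise. The list was also chosen with earlier results of these data known. THBS1, the matrix glycoprotein thrombospondin 1, had 7.99, 7.31 and 8.96 against 214.42, 197.55 and 209.98, and rose 25.6-fold. The receptor tyrosine kinase gene AXL rose 21.4-fold and TGFB2, a TGF-beta ligand, 10.5-fold. FSTL1, which encodes a secreted glycoprotein, rose 10.2-fold, from 28.2 ± 8.05 to 289 ± 8.53. F3, which encodes tissue factor and was named after its values were seen, rose 2.33-fold, from 104 ± 1.90 to 242 ± 4.06. Several of these genes are also induced by TGF-beta or by SRF, so the list is not specific to YAP.

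Relatives of the members were named after their values were seen. The CCN family genes CCN3 and CCN5 rose 9.75-fold and 5.65-fold, CCN3 from 0.880 ± 0.240 to 8.58 ± 0.193 and CCN5 from 4.12 ± 1.59 to 23.3 ± 2.21. ANKRD2, the muscle relative of ANKRD1, rose 5.45-fold from a low level, from 0.433 ± 0.0710 to 2.36 ± 0.231. NPPB, a natriuretic peptide gene of stretched heart muscle like ANKRD1, was listed at 0 in all 3 HCC827 libraries and had 270.12, 247.59 and 258.2 in HCC827OR. It was the only tested gene of its list of 12, of which 3 were in the table. NPPB passed the filter through HCC827OR alone and could only be higher.

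Of 47 components and regulators of the Hippo pathway 14 were in the table and 13 were tested, 6 higher and 7 lower, with a median log2 fold change of -0.79. That split is near the 52.5% higher and 45.0% lower of all tested genes. WTIP passed the filter through HCC827OR alone and could only be higher. VGLL1 passed through HCC827 alone and could only be lower. The others were 5 higher and 6 lower. YAP1, WWTR1, TEAD1, TEAD2, TEAD3 and LATS1 were not analysed here. The TEAD cofactors VGLL1 and VGLL3 moved in opposite directions. VGLL1 had 7.28, 4.69 and 8.18 in HCC827 and was listed at 0 in all 3 HCC827OR libraries (log2 fold change -2.92). VGLL3 rose 5.20-fold, from 1.24 ± 0.531 to 6.46 ± 0.538 (log2 fold change 1.76, SE 0.195, limma adjusted p = 1.14e-04). FRMD6, a FERM protein of the upstream pathway, rose 5.35-fold, from 5.44 ± 0.368 to 29.1 ± 0.490. NUAK1, a kinase related to the member NUAK2, rose 8.80-fold, from 1.54 ± 0.121 to 13.6 ± 0.524. RASSF2, RASSF4 and WTIP were the other risers, with log2 fold changes of 2.25, 1.27 and 1.01.

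Besides VGLL1, 6 Hippo genes fell. CRB3 and PATJ, of the Crumbs complex at the apical membrane, fell 3.90-fold and 1.81-fold, and LLGL2 and SCRIB, of the basolateral Scribble module, fell 4.17-fold and 4.35-fold. SCRIB had 46.13, 37.11 and 36.14 in HCC827 and 8.11, 9.15 and 10.16 in HCC827OR, with no overlap. STK3, which encodes the kinase MST2 upstream of LATS2, fell 2.83-fold, from 15.8 ± 1.60 to 5.60 ± 0.684, and RASSF6 fell 2.83-fold. SCRIB and STK3 lie on chromosome 8 beyond 50 Mb, where 138 of 164 genes in the table were called lower by the authors and 26 higher. The part of that region in their fall was not tested.

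**Figure D4:**
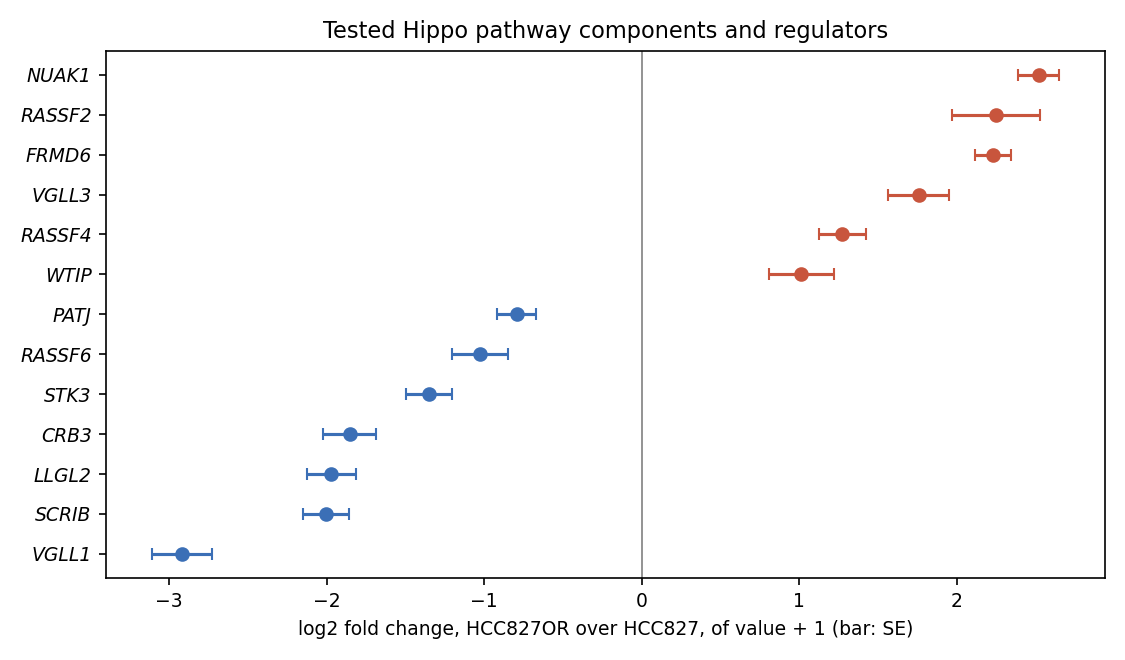
Log2 fold change of value + 1 in HCC827OR over HCC827 (x axis, bar SE) for the 13 tested Hippo pathway components and regulators. NUAK1 at 2.52 and VGLL1 at -2.92 are at the ends, and CRB3, PATJ, LLGL2, SCRIB, STK3 and RASSF6 are the others below 0. VGLL1 could only be lower and WTIP could only be higher.

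ANKRD1, CCN1 and CCN2 are also targets of SRF and its actin-sensing coactivators, the MRTFs. Of 24 genes of that list 13 were in the table and 12 were tested. CNN1 and ACTG2 were below 1 in every HCC827 library and could only be higher. The other 10 were all called higher, with a median log2 fold change of 2.32. Of the genes that reached 1 in both lines, 49.9% were called higher. Their median of 0.57 mixes risers and fallers. The contractile genes MYL9 and TAGLN rose 27.8-fold and 36.4-fold, and CNN1 was listed at 0 in all HCC827 libraries and had 73.05, 71.69 and 74.49 in HCC827OR. ACTG2 had 0, 0 and 0.2 against 52.15, 45.86 and 54.04. CCN3 and CCN5 were counted in this list as well.

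Of 14 listed matrix genes around CCDC80, 12 were in the table and tested. FBLN1, FBN1, POSTN and SRPX were below 1 in every HCC827 library and could only be higher. The other 8 were 7 higher and 1 lower, with a median log2 fold change of 2.32. Of the genes that reached 1 in both lines, 49.9% were called higher. Their median of 0.57 mixes risers and fallers. FBN1 and FBLN1, which encode the matrix proteins fibrillin 1 and fibulin 1, had log2 fold changes of 4.91 and 5.74. FSTL3, an inhibitor of activin, rose 7.63-fold. LOXL2, a collagen crosslinking enzyme, had 15.96, 12.94 and 45.74 in HCC827 and 411.98, 394.12 and 414.28 in HCC827OR, which was 16.4-fold higher, or 28.2-fold without HCC827 replicate 3. The gene that fell was EFEMP1, a fibulin, from 32.9 ± 1.62 to 6.87 ± 0.960.

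The 32 listed genes of adenosine handling, around NT5E, act inside or outside the cell. Of these 15 were in the table and 10 were tested, 6 higher and 4 lower. That split is near the 52.5% and 45.0% of all tested genes. ENPP1 passed the filter through HCC827OR alone and could only be higher. ACP3 passed through HCC827 alone and could only be lower. The others were 5 higher and 3 lower. The deaminase gene ADA, which removes adenosine, had 14.6, 12.49 and 14.25 in HCC827 and 68.77, 67.29 and 71.51 in HCC827OR, a rise of 5.02-fold (log2 fold change 2.25, SE 0.111, limma adjusted p = 3.30e-06). AMPD2, which deaminates AMP, rose 2.70-fold, from 44.7 ± 4.95 to 121 ± 5.18. The receptor gene ADORA1 fell 3.22-fold, from 4.89 ± 1.41 to 1.52 ± 0.436. ADORA2A had 0.92, 0.88 and 3.16 against 6.84, 8.01 and 6.38, a rise of 4.28-fold and of 7.86-fold without HCC827 replicate 3.

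Among nucleoside transporters SLC29A2 fell 2.55-fold, from 25.6 ± 4.58 to 10.0 ± 0.410, and SLC29A4 rose 4.60-fold, or 9.31-fold without HCC827 replicate 3. The phosphatase gene ACP3, whose product can also form adenosine from AMP, had 2.74, 1.73 and 6.87 in HCC827 and 0, 0.03 and 0 in HCC827OR. The cytosolic nucleotidase gene NT5C3A fell 2.24-fold. The median log2 fold change of the 10 was 1.33.

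**Figure D5:**
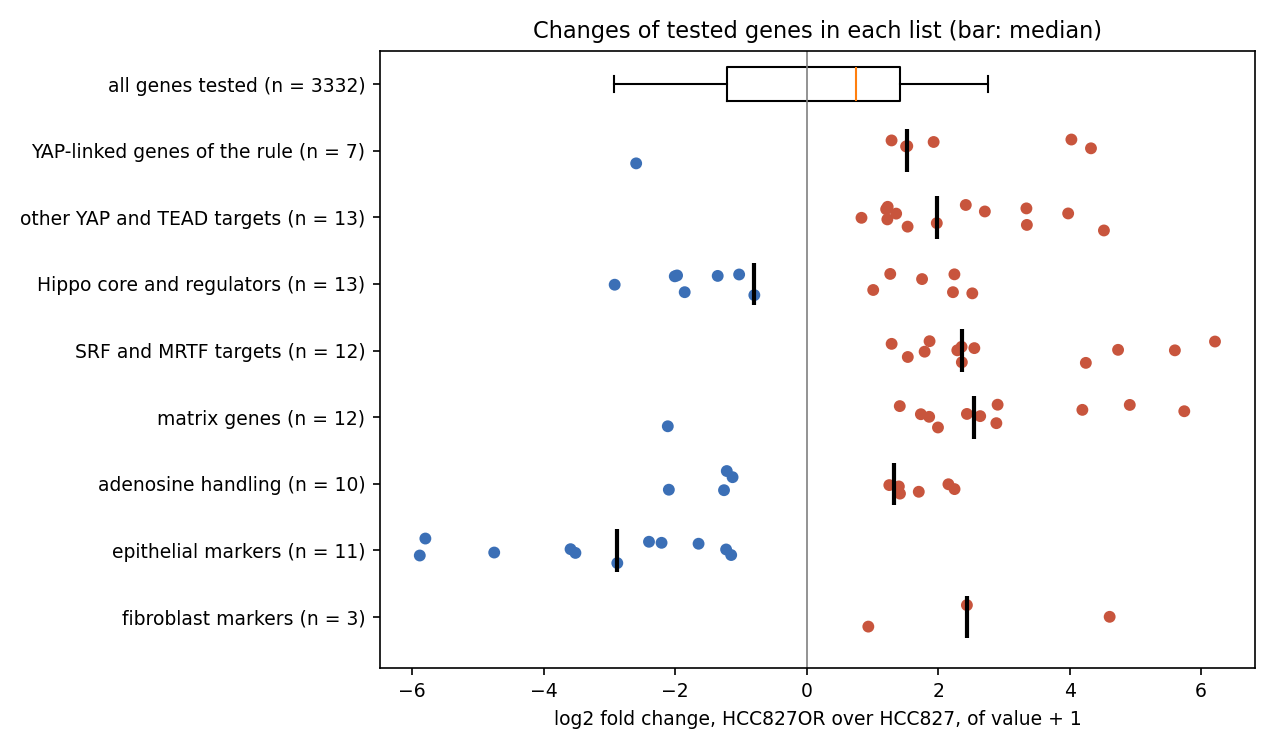
Log2 fold change of value + 1 in HCC827OR over HCC827 (x axis) for each tested gene of 8 lists, red above and blue below 0, with the black bar at the list's median. The box for all 3332 tested genes gives the median of 0.74, the quartiles and the 5th to 95th percentiles, and the lists of YAP and TEAD targets and of SRF and MRTF targets hold no gene below 0 other than NT5E, although 4 genes of the former and 2 of the latter could only be higher.

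Lists of cell type markers were examined in the same way. Of 13 epithelial markers 11 were in the table. GRHL2 and NKX2-1 were below 1 in every HCC827OR library and could only be lower, and the other 9 were all called lower, where 46.6% of the genes that reached 1 in both lines were. The 11 had summed values of 7010 to 8319 in HCC827 and 2260 to 2296 in HCC827OR. KRT7, KRT18 and KRT19 weighed most in that sum, with HCC827 means of 1962, 2222 and 1919. EPCAM, NAPSA and NKX2-1 had log2 fold changes of -4.75, -5.80 and -3.59. That of the splicing regulator ESRP1 was -5.88, and its fall by the ratio of means was 160-fold, or 429-fold without HCC827OR replicate 3. Without the same library the fall of NKX2-1 was 117-fold in place of 55.3-fold. ESRP1 and GRHL2 lie on chromosome 8 beyond 50 Mb like SCRIB and STK3, as does CCN3, which rose. The part of that region in the falls of ESRP1 and GRHL2 was not tested. Of 12 fibroblast markers 5 were in the table and 3 were tested, LUM, POSTN and DCN. All 3 were below 1 in every HCC827 library and could only be higher, so their calls say nothing of direction. The list had summed values of 0.43 to 0.80 in HCC827 and 32.1 to 35.7 in HCC827OR. LUM made up most of that sum, at 25.19, 23.68 and 27.18 in HCC827OR, while DCN rose 3.90-fold and POSTN was listed at 0 in HCC827. None of 11 leukocyte markers was in the table, and of 8 endothelial markers 3 were. PECAM1 fell 6.25-fold, whereas VWF and TEK, which were too low to be tested, had means of 0.0100 and 0.00667 in HCC827 and 0.0767 and 0.12 in HCC827OR. The part of these markers in the rise of the YAP-linked genes was not tested.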

How the data were processed

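RNA-seq was made with a TruSeq kit from 3 libraries of HCC827 and 3 of HCC827OR, per the labels, whose titles gave the groups and replicate numbers. The authors deposited 1 table with a normalized expression signal per gene and library, each line's mean, and the authors' ratio (fold change), log2 fold change, p-value and adjusted p-value. Its unit, aligner and test are not given in the sources used here. The submitters' processing notes name Bowtie 0.12.2 and the mouse build mm8, and the labels' extraction text speaks of retinas, which go against human gene IDs, so no step was taken from them. All 4439 genes differed by at least 1 in the authors' log2 fold change, up or down, and genes without such a difference are not analysed here.

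Signals were tested as log2(value + 1) with limma 3.58.1 in R 4.3.3, with a mean-variance trend, for genes at 1 or more in at least 3 libraries. This kept 3332 genes, all 7 members among them, and left 1107 untested. Calls used a Benjamini-Hochberg adjusted p below 0.05 over all tested genes. Folds are ratios of means, whereas changes on the log2(value + 1) scale understate low genes. The test was checked on simulated data in which most genes were unchanged, so that check does not cover a table of genes selected for a change. Symbols matched 4414 IDs, and positions came by gene ID from GENCODE release 29 (GRCh38). Promoters are from RefSeq on GRCh38.p14. Python 3.11.15 and pandas 2.3.3 were used. Members and lists were chosen with earlier results of these data known, and 1 gene of the YAP and TEAD target list is not reported here and was left out of that list. Named genes were all members, every called Hippo gene, up to 4 called genes per direction with the largest change in each other list, and the 3 nearest genes of ANKRD1, CCDC80 and NT5E. Replicate numbers were not taken as pairs, since nothing in the labels ties them.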

Additional observations from a re-analysis of the deposited data

How the results depend on the processing

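All 7 members kept their direction and their call under 13 alternatives: equal library medians, quantile normalisation, no filter, a filter at 5, a pseudocount of 0.1, no trend, the replicate block and each library left out. CCN2 came nearest to the threshold, with limma adjusted p between 4.42e-06 and 0.0463. Member counts stayed at 6 higher and 1 lower. With a filter at 5, 987 genes of 2020 were called higher in place of 1749, and the median change of tested genes was -0.69 in place of 0.74, since fewer genes were tested. The median was 0.32 with no filter, 0.52 with quantile normalisation and 1.08 with a pseudocount of 0.1. List counts were also recomputed, which was decided after seeing the data, and did not move when any single library was left out and the same 3332 genes were kept. Keeping those genes was itself chosen after seeing the counts with the filter applied again to the 5 remaining libraries. With that filter between 1156 and 1752 genes were called higher and between 1086 and 1444 lower over the 6 libraries left out. The counts of 1159, 1160 and 1156 higher came without HCC827OR replicate 1, 2 and 3, where 2767, 2766 and 2768 genes were tested, since a gene at 1 or more in the 3 resistant libraries alone then fails the filter. In those same cases 7 matrix genes of 8 tested were higher in place of 11, 9 YAP and TEAD targets of 9 in place of 13, and 10 SRF and MRTF targets of 10 in place of 12. The fibroblast markers and the list that holds NPPB then had no tested gene. The members stayed at 6 higher and 1 lower. With no filter 7 adenosine genes were lower, and 3 genes of the list that holds NPPB, 5 fibroblast markers and 1 endothelial marker were higher. With a filter at 5, 2 adenosine genes were lower and 1 fibroblast marker was higher. The same filter left 9 of 9 tested YAP and TEAD targets, 11 of 11 SRF and MRTF targets and 8 of 9 matrix genes higher. Hippo genes were then 5 higher and 5 lower, and no endothelial marker was tested. None of the other 54 named genes lost its call or direction where it was tested. Same-numbered libraries did not deviate together, with correlations of 0.026, 0.026 and -0.028 over genes. With the replicate block CCN2 had a limma adjusted p of 0.0086 and the member counts were unchanged at 6 and 1. The depth is unknown.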

Other observations

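The authors' deposited fold changes were not always the ratio of their deposited means. Over 3274 tested genes with both means above 0 the median quotient of the 2 was 0.963, and 91.7% lay within 1.5 times. CCDC80, at 0.650, was just outside that range and was the only member outside it. In 7 of these tested genes, and in 12 of 4168 genes with both means above 0, the 2 had opposite directions. CD38, an ectoenzyme gene of the adenosine list, was called higher with a fold of 3.45 in the authors' deposited table, while its deposited means were 0.213 in HCC827 and 0.183 in HCC827OR. It was too low to be tested here.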
